A study of Rattus norvegicus with 10 samples.

Results

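The gamma crystallins were followed on 10 arrays of rat lens explants, pieces of lens capsule carrying the epithelial cells, taken from 3-day-old pups and pooled at 6 explants per assay. All explants were kept overnight with 5 ng/mL FGF2, which is the 0 hr group, and were then given 100 ng/mL FGF2 for 2, 4, 12, or 24 hr, a dose at which such cells differentiate into fibers. Each of the 5 time points has 2 replicate experiments, and the pups' strain is not given in the labels. The arrays hold no explants left at 5 ng/mL for equally long, and the higher dose and the longer culture therefore cannot be told apart. Members were all probe sets whose annotation gives Cryga, Crygb, Crygc, Crygd, Cryge, or Crygs, alone or with another gamma crystallin, which brings in Crygf through the probe set it shares with Cryge. The rule found 7 probe sets of the 31042 tested, for 7 genes of the 14863 with a symbol. Cryga has 2 probe sets, Crygb, Crygc, Crygd, and Crygs have 1 each, and Cryge and Crygf have 1 between them, which cannot be divided. All values are intensities on a linear scale, as normalized by the authors with the robust multichip average (RMA), and differences are on the log2 scale.

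Gamma crystallins are small, soluble, monomeric proteins built from Greek key motifs, and their dense packing in fiber cells gives the lens its high refractive index. They are typically switched on later in fiber differentiation than the alpha crystallins, and mutations in several of them cause cataract. Cryga to Crygf lie together in the genome and their products are most abundant in the central fibers formed before and around birth, whereas Crygs lies on another chromosome and its product accumulates mainly in fibers added after birth.

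The start of each gene shows the same division, and the sequences are given here because they separate the 6 clustered genes from Crygs. They are windows of the RefSeq promoters (rat build GRCr8, each promoter running from 250 bases before to 50 bases after the annotated start), read 5′ to 3′ on the gene's own strand, and all 7 genes had an entry. Capitals mark the longest run of bases that all 6 clustered genes share and the TATATA that follows it, or, in Crygs, the TATAAA.
Cryge, chr9:73926265-73926334, minus strand: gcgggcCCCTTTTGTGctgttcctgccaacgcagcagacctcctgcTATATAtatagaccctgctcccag
Crygd, chr9:73937419-73937488, minus strand: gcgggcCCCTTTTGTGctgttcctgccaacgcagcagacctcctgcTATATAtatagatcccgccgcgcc
Crygc, chr9:73947375-73947444, minus strand: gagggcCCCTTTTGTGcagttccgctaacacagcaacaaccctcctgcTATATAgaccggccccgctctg
Crygb, chr9:73957275-73957344, minus strand: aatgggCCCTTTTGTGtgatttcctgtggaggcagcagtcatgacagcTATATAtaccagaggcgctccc
Cryga, chr9:73978393-73978462, minus strand: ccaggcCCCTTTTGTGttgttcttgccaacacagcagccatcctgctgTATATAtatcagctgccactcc
Crygf, chr9:74897966-74898033, plus strand: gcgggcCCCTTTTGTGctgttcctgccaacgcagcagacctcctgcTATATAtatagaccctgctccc
Crygs, chr11:91711686-91711755, plus strand: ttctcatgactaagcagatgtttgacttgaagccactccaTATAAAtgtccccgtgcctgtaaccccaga

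The shared run CCCTTTTGTG stood in the promoters of all 6 clustered genes and not in that of Crygs. On either strand it occurred in 39 of 33469 rat promoters of the same length, 0.117%, among them 7 entries of the clustered genes themselves. The run was chosen as one that these 6 genes share, so its presence in all 6 was fixed by the choice. TATATA began 40 bases after the start of the run in Crygd, Cryge, and Crygf and 42 bases after it in Cryga, Crygb, and Crygc, and 6.15% of all promoters hold it. It lay 29 to 49 bases before the annotated start except in Crygf, where it lay 28 bases after it. All 68 bases of the Crygf window, cut short by the end of its promoter, matched the Cryge window, 97.1% of its 70 bases. The windows of Cryge and Crygd had 63 identical bases (90.0%), and those of Crygb and Crygc, the least alike pair, 43 (61.4%). In the RefSeq order of protein-coding genes on chromosome 9, Cryge, Crygd, Crygc, Crygb, and Cryga followed each other with 0 genes between them, and Idh1, Pikfyve, and Pth2r stood between Cryga and Crygf. These are promoter sequences and do not show how alike the transcripts are. How far the probe sets of the clustered genes bind each other's transcripts was not tested.

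Short motifs of factors that act on crystallin genes were sought on both strands of the promoters. Maf proteins are leucine zipper activators of crystallin genes, and their core TGCTGA was found in Cryga, in 1 of the RefSeq entries of Crygc, and in Crygs, against 18.4% of all promoters. The Sox cores ACAAAG and ACAATG, recognized by the high mobility group factors that include Sox1 and Sox2, were found in Cryga, Crygd, and Crygf and in Crygd and Crygs, against 18.8 and 13.2% of all promoters. TATAAA was found in Crygs and, far from its TATATA, in Crygf, against 14.2%. In the gamma crystallin promoters none of these matches overlapped another or the shared run. A match to so short a run is a description of the letters only.

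Over the course, 2 of the 7 probe sets varied beyond the spread between replicates, those of Crygs and Crygd. By limma's moderated F over the 5 time points the adjusted p was 0.0014 for Crygs and 0.00551 for Crygd, and 40.7% of all probe sets passed the same test. Crygs was higher early and lower late, and Crygd fell at 24 hr. The other 5 probe sets passed neither this test nor any comparison in the limma fit of all 10 arrays, and among them those of Cryga and Crygb had replicate arrays up to 8.04-fold apart. Against 0 hr, members called at an adjusted p under 0.05 numbered 0 of 7 at both 2 and 4 hr, and 1 of 7 at both 12 and 24 hr, each of the latter a fall. Of all 31042 probe sets 17.5, 23.8, 19, and 20.2% were called at those times. At an unadjusted p under 0.05 from the same limma fit, 1 member passed at 2 hr and 1 at 4 hr, against 30.6 and 35.2% of all probe sets. The median log2 change of the 7 members was −0.20, 0.02, 0.03, and −0.72 at 2, 4, 12, and 24 hr, and that of all probe sets stayed between −0.02 and 0.03.

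**Figure D1:**
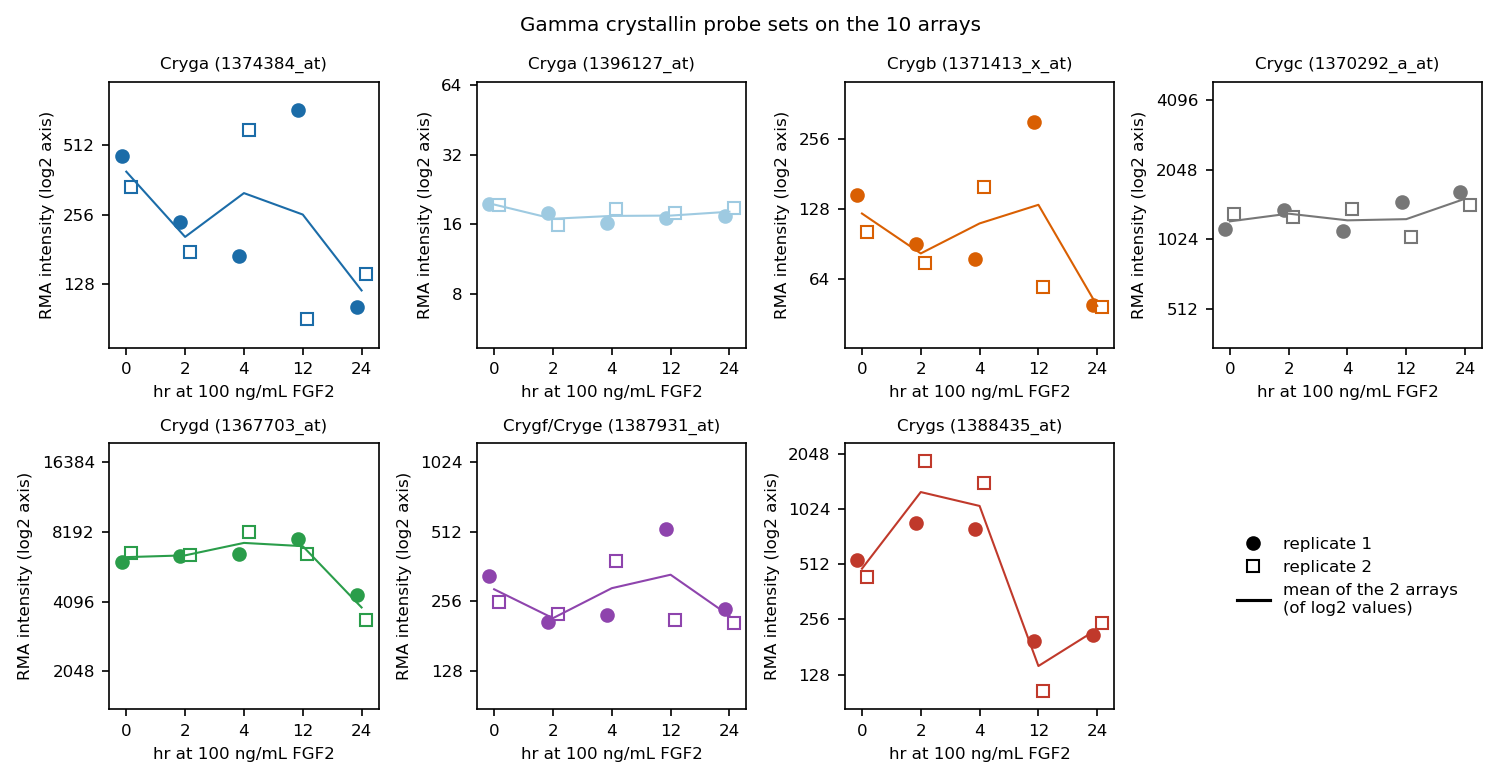
RMA intensity of each gamma crystallin probe set (vertical log2 axis) at each hour after the change to 100 ng/mL FGF2 (horizontal axis, time points evenly spaced), with replicate 1 as filled circles, replicate 2 as open squares, and a line through the mean of the log2 values of the 2 arrays. Crygs lies above its 0 hr values at 2 and 4 hr and below them at 12 and 24 hr, Crygd drops at 24 hr, and Cryga and Crygb have their widest gap between replicates at 12 hr.

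Several features of the arrays bear on these values. The alpha crystallins Cryaa and Cryab read 22520 to 25150 and 17690 to 21090 on the 10 arrays. The 6 photoreceptor markers measured summed to 229.3 to 266.1, with 1 called higher at 4 hr. Pigment cell markers summed to 171.7 to 192.8 over 5 genes and immune cell markers to 171.6 to 302.4 over 5 genes, with no member called against 0 hr at any time. The shares of all probe sets called against 0 hr were 17.5, 23.8, 19, and 20.2% at 2, 4, 12, and 24 hr. The 3 vascular endothelium markers measured summed to 229.3 to 699.6, most of it from Kdr. Of these Pecam1 fell at 4 hr by 0.51 (limma adjusted p 0.0396), Kdr rose at 12 hr by 1.21 (0.0454), and Tie1 fell at 24 hr by 0.78 (0.0353), and their part in the results was not tested. In the array names given in the study's materials, the 0 hr arrays, the 2 and 4 hr arrays, and the 12 and 24 hr arrays belong to 3 separate runs of numbers. Only 4 against 2 hr and 24 against 12 hr compare arrays within 1 run of numbers, and in the other comparisons the hour and the run cannot be told apart. The log2 ratio of 5′ to 3′ probe sets of Actb, a sign of RNA length, was −1.21 and −1.12 at 0 hr, −2.13 to −1.37 at 2 and 4 hr, −1.43 and −1.30 at 12 hr, and −1.88 and −1.75 at 24 hr. That of Gapdh was −0.05 and 0 at 0 hr, −0.30 to −0.17 at 2 and 4 hr, −0.12 and −0.06 at 12 hr, and −0.14 and −0.13 at 24 hr. The part of these ratios in the results was not tested. Replicates were farther apart at 2 and 4 hr, where their log2 difference had an SD over all probe sets of 0.288 and 0.300, than at 0, 12, and 24 hr (0.161, 0.170, and 0.213). Values are relative to the rest of the array, so that fewer cells of a kind and less RNA per cell cannot be told apart.

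Crygs (1388435_at), the gamma crystallin that lies apart from the cluster, read 537.6 and 434.4 at 0 hr, 853.2 and 1870 at 2 hr, 793.3 and 1420 at 4 hr, 195.7 and 103.8 at 12 hr, and 209.4 and 244.6 at 24 hr. Both arrays of each early time point lay above both 0 hr arrays, and all 4 late arrays lay below them. The mean log2 difference from 0 hr was 1.39 at 2 hr (2.61-fold, 95% interval 0.43 to 2.34) and 1.14 at 4 hr (2.20-fold, interval 0.18 to 2.09), with a standard error of 0.42 and n = 2 arrays per time point. These did not pass limma's threshold, with adjusted p of 0.0535 and 0.0857. At 12 hr Crygs fell by 1.76 on the log2 scale (3.39-fold lower, interval −2.72 to −0.81, limma adjusted p 0.0192), and at 24 hr the difference of −1.09 (2.14-fold lower, interval −2.05 to −0.14) had a limma adjusted p of 0.107. The call at 12 hr rested on every array of the comparison but 1: the difference became −1.61 without 0 hr replicate 1, −1.92 without 0 hr replicate 2, and −1.30 without 12 hr replicate 2, with limma adjusted p of 0.117, 0.0707, and 0.143. The methods' analysis of variance of the 2 time points alone gave an unadjusted P of 0.0675. The size of the early difference turned on the replicate kept. At 2 hr it was 1.95 without replicate 1 (limma adjusted p 0.0227) and 0.82 without replicate 2 (0.24), and at 4 hr it was 1.56 without replicate 1 (limma adjusted p 0.0524) and 0.72 without replicate 2 (0.347).

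The time points of Crygs ran, from the highest mean to the lowest, 2, 4, 0, 24, and 12 hr. The step from 2 to 4 hr (0.25) was smaller than the standard error, while the steps from 4 to 0 hr (1.14), 0 to 24 hr (1.09), and 24 to 12 hr (0.67) were larger. Within the runs of array numbers, 4 against 2 hr differed by −0.25 (interval −1.21 to 0.70, adjusted p 0.825) and 24 against 12 hr by 0.67 (interval −0.29 to 1.62, adjusted p 0.492, limma), so that neither pair of neighbouring times was told apart. The late times together (12 and 24 hr) lay 2.69 below the early times (2 and 4 hr) on the log2 scale, as a 6.45-fold lower level (standard error 0.30, interval −3.36 to −2.01, limma adjusted p 0.000173). The lowest early array read 793.3 and the highest late array 244.6. Of all probe sets 39.2% were called in this comparison, in either direction, and of the 7 members 2 were, Crygs and Crygd, both lower late. The Crygs difference between the phases kept its direction and its call under all 20 alternatives, from −2.97 to −2.41. At 2 and 4 hr the second replicate of Crygs was the brighter one, by 2.19- and 1.79-fold, and its Actb log2 ratio was the lower one, −2.13 against −1.68 at 2 hr and −2.08 against −1.37 at 4 hr.

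Crygd (1367703_at), a member of the chromosome 9 cluster, read 6089 and 6665 at 0 hr, 6466 and 6502 at 2 hr, 6591 and 8170 at 4 hr, 7657 and 6591 at 12 hr, and 4377 and 3412 at 24 hr. The 8 arrays up to 12 hr lay between 6089 and 8170, and both 24 hr arrays lay below all of them. Against 0 hr the log2 differences were 0.03, 0.20, and 0.16 at 2, 4, and 12 hr (n = 2 arrays at each, standard error 0.15), with intervals that reach from −0.31 to 0.54. At 24 hr Crygd fell by 0.72 on the log2 scale (1.65-fold lower, interval −1.06 to −0.38, limma adjusted p 0.0099). Its means ran 4, 12, 2, 0, and 24 hr from high to low, and the first 3 steps (0.05, 0.13, and 0.03) were each under the standard error, while the last was the fall of 0.72.

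The fall of Crygd at 24 hr was also seen within 1 run of array numbers. From 12 to 24 hr it fell by 0.88 on the log2 scale (1.84-fold lower, interval −1.22 to −0.54, limma adjusted p 0.0151), the only one of the 7 members called in that comparison, in which 4.34% of all probe sets were called. In the same comparison the Actb log2 ratio was lower on both 24 hr arrays (−1.75 and −1.88) than on both 12 hr arrays (−1.30 and −1.43). The Gapdh ratio was −0.13 and −0.14 at 24 hr and −0.06 and −0.12 at 12 hr. The part of RNA length in the fall was not tested. From 2 to 4 hr 0 of 7 members were called, against 3.73% of all probe sets, and 0 had an unadjusted p under 0.05, against 17.1%. Late against early, Crygd lay 0.40 lower (limma adjusted p 0.0164), with the 12 hr arrays inside the range of the early ones. The 24 hr call was lost without 0 hr replicate 2 (−0.66, limma adjusted p 0.0763) and without 24 hr replicate 2 (−0.54, limma adjusted p 0.0744). The 24 against 12 hr call was lost without 12 hr replicate 1 (−0.77, 0.124), 12 hr replicate 2 (−0.99, 0.0792), or 24 hr replicate 2 (−0.70, 0.0969), each an adjusted p from limma. The late against early call was lost without 12 hr replicate 2 (−0.34, limma adjusted p 0.0664) or 24 hr replicate 2 (−0.31, limma adjusted p 0.0562). The methods' analysis of variance of the time points compared gave an unadjusted P of 0.0636 for 24 against 0 hr and 0.0526 for 24 against 12 hr. In all of these fits Crygd stayed lower at the later time.

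**Figure D2:**
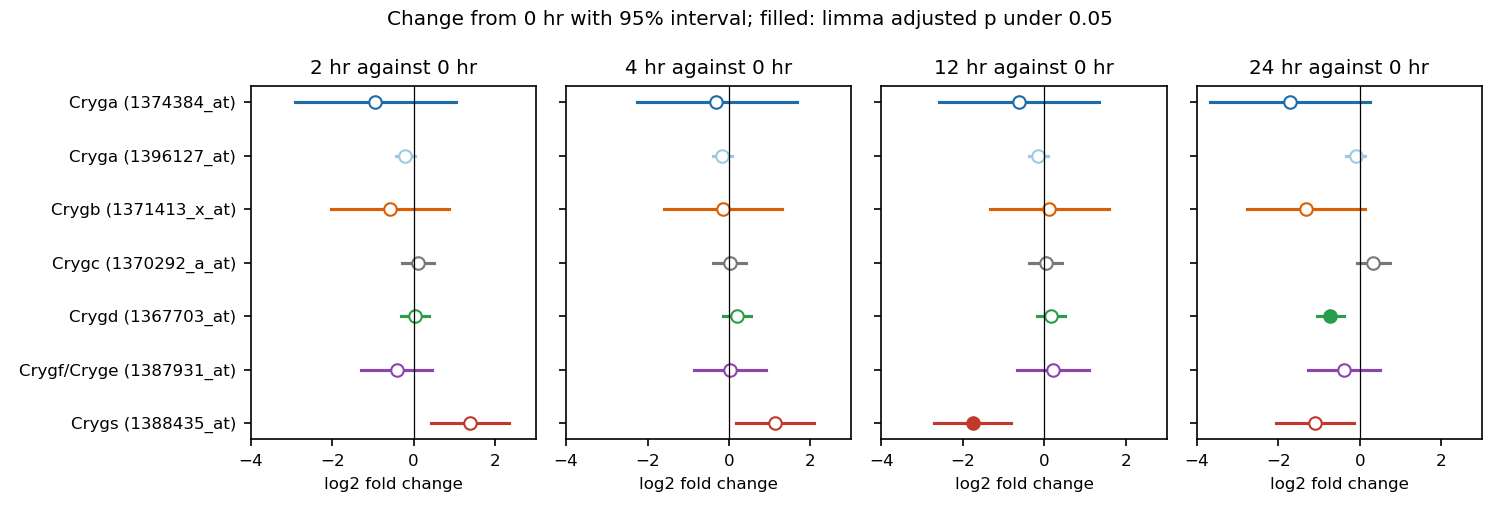
Log2 fold change from 0 hr of each gamma crystallin probe set at 2, 4, 12, and 24 hr (horizontal axis), as points with 95% intervals from the limma fit over all 10 arrays, filled where the adjusted p was under 0.05. The filled points are Crygs at 12 hr (−1.76) and Crygd at 24 hr (−0.72), and the intervals of Cryga 1374384_at and Crygb are the widest.

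Crygc (1370292_a_at), whose probe set by its name suffix matches several transcripts of 1 gene, read 1140 and 1314 at 0 hr, 1368 and 1277 at 2 hr, 1108 and 1380 at 4 hr, 1491 and 1050 at 12 hr, and 1634 and 1437 at 24 hr. Both 24 hr arrays lay above both 0 hr arrays, and at the other times the arrays overlapped those at 0 hr. The differences from 0 hr were 0.11, 0.02, 0.03, and 0.32 on the log2 scale (standard error 0.18), and the interval at 24 hr ran from −0.08 to 0.73 (limma adjusted p 0.256). Crygc was the only one of the 7 member probe sets with a higher mean at 24 hr than at 0 hr, and this difference was not told apart from 0.

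Cryga (1374384_at) read 458.4 and 335.7 at 0 hr, 237.8 and 177.0 at 2 hr, 169.8 and 591.8 at 4 hr, 726.5 and 90.34 at 12 hr, and 102.3 and 142.0 at 24 hr. The highest and the lowest of the 10 values were both at 12 hr. The log2 differences from 0 hr were −0.94, −0.31, −0.62, and −1.70, with a standard error of 0.87, and the interval at 24 hr ran from −3.67 to 0.26 (limma adjusted p 0.222). All 4 arrays at 2 and 24 hr lay below both 0 hr arrays. The sign at 12 hr turned on which array was kept: without replicate 1 the difference was −2.12 (limma adjusted p 0.0815) and without replicate 2 it was 0.89 (limma adjusted p 0.48). The other Cryga probe set (1396127_at) read 15.95 to 19.56 on the 10 arrays, with replicate differences of at most 0.20 on the log2 scale. Its arrays at 2, 4, 12, and 24 hr all lay below both 0 hr arrays, by 0.20, 0.16, 0.16, and 0.10 on average. None of these differences was called. This probe set was dim, with a mean level at percentile 12.4 of all probe sets, and did not have the wide gaps between replicates at 4 and 12 hr.

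Crygb (1371413_x_at), a probe set whose suffix marks possible matches to other genes, read 146.4 and 101.9 at 0 hr, 90.29 and 74.75 at 2 hr, 77.35 and 158.4 at 4 hr, 302.8 and 58.57 at 12 hr, and 49.24 and 48.27 at 24 hr. The 24 hr arrays were its lowest and lay within 1.02-fold of each other. Its log2 differences from 0 hr were −0.57, −0.14, 0.13, and −1.33 (standard error 0.64), and the interval at 24 hr ran from −2.78 to 0.13 (limma adjusted p 0.199). Without either one of the 12 hr arrays, which leaves the value at −1.33, the limma adjusted p at 24 hr was 0.0278. At 12 hr the difference was −1.06 without replicate 1 and 1.31 without replicate 2.

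The probe set of Cryge and Crygf (1387931_at) read 328.4 and 254.4 at 0 hr, 208.2 and 225.9 at 2 hr, 222.8 and 383.1 at 4 hr, 524.6 and 212.6 at 12 hr, and 238.4 and 207.1 at 24 hr. Its highest value was again 12 hr replicate 1, and at 2 and 24 hr both arrays lay below both 0 hr arrays. The log2 differences from 0 hr were −0.42, 0.02, 0.21, and −0.38 (standard error 0.39), none past the threshold. In Cryga 1374384_at, Crygb, and the Cryge and Crygf probe set, the 24 hr mean lay 1.70, 1.33, and 0.38 below that at 0 hr, and that of Crygd 0.72 below. A limma fit of the 0 and 24 hr arrays alone, which leaves out the spread at the other times, called 4 of the 7 members lower at 24 hr, Crygd and also Cryga 1374384_at (adjusted p 0.00411), Crygb (0.00497), and Crygs (0.00429). That fit called 24.6% of all probe sets.

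The spread between replicate arrays was itself uneven among the members. The pooled SD of replicates on the log2 scale was 1.14 for Cryga 1374384_at, which 2 of the 31042 probe sets exceeded, and 0.84 for Crygb, which 12 exceeded. For Crygs it was 0.55 (0.454% of probe sets were larger), for Cryge and Crygf 0.50 (0.683%), for Crygc 0.21 (14.7%), for Crygd 0.17 (25.3%), and for Cryga 1396127_at 0.09 (69.2%). At 12 hr replicate 1 exceeded replicate 2 by 8.04-fold in Cryga 1374384_at, 5.17-fold in Crygb, 2.47-fold in Cryge and Crygf, 1.88-fold in Crygs, 1.42-fold in Crygc, and 1.16-fold in Crygd. At 4 hr the order was the opposite, with replicate 2 above replicate 1 in all 7 probe sets, by 3.48-fold in Cryga 1374384_at, 2.05-fold in Crygb, and 1.72-fold in Cryge and Crygf. The other lens genes differed between these replicates too, in part. At 12 hr replicate 1 was higher in 7 of 8 alpha and beta crystallins (median log2 difference 0.47) and in 9 of 12 measured fiber genes, among them Mip, the water channel of fiber membranes (164.8 against 52.78). It was higher in 0 of 5 epithelium markers and in 15647 of all 31042 probe sets. At 4 hr replicate 1 was higher in 3 of 8 alpha and beta crystallins (median −0.65). At 2 hr it was higher in 0 of 8 (median −0.70) and in 4 of the 7 gamma crystallin probe sets (median 0.10). Whether the 12 hr assays differed in their share of fiber cells was not tested.

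**Figure D3:**
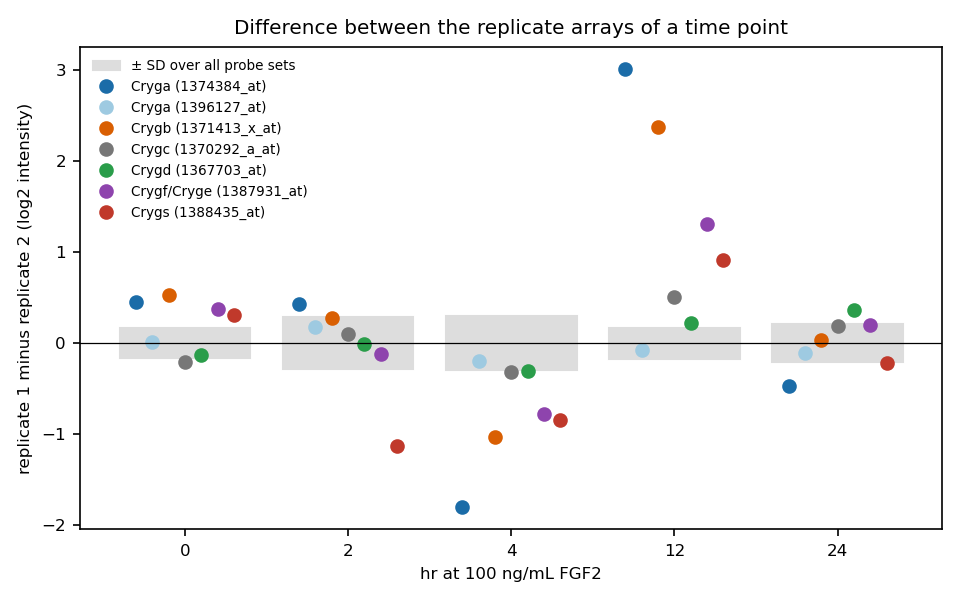
Replicate 1 minus replicate 2 in log2 intensity (vertical axis) for each gamma crystallin probe set at each time point, with grey boxes for 1 SD to either side of 0 over all 31042 probe sets. Cryga 1374384_at reaches 3.01 and Crygb 2.37 at 12 hr, and all 7 probe sets lie below 0 at 4 hr.

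Across the 10 arrays Cryga 1374384_at, Crygb, and the Cryge and Crygf probe set rose and sank together. Pearson's r of log2 values was 0.95 for Cryga and Crygb (Spearman's rank correlation 0.94), 0.92 for Crygb with Cryge and Crygf (0.79), and 0.86 for Cryga with Cryge and Crygf (0.76). For the deviations from the time point means, which leave out the time course, the same pairs had r of 0.98, 0.97, and 0.94. With 2 arrays per time point the deviations mirror each other, so that each time point adds only 1 replicate difference. The widest differences were at 12 and 4 hr, 3.01 and −1.80 in Cryga and 2.37 and −1.03 in Crygb. Crygc had r of 0.82 with Cryga and 0.84 with Crygd in the deviations, and of 0.16 and −0.34 over the log2 values themselves. The 2 members that varied with time had r of 0.37. These are descriptions over 10 arrays that share RNA, labelling, and possibly cross-hybridization. The 2 probe sets of Cryga, of which 1396127_at was dim, had r of only 0.28.

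The genes whose log2 values ran most like those of Crygs and Crygd were sought among 3098 probe sets with 1 symbol, a moderated F adjusted p under 0.05, and time point means spanning at least 1 log2 unit. For Crygs they were Ogn, which encodes the small leucine-rich proteoglycan osteoglycin (r = 0.98 over 10 arrays), Cadps2, which encodes a protein of vesicle priming (0.98), and Chka, which encodes choline kinase alpha (0.97). Ogn differed from 0 hr by 1.15, 0.91, −2.23, and −1.72 at 2, 4, 12, and 24 hr on the log2 scale, Cadps2 by 1.18, 1.02, −1.26, and −0.71, and Chka by 0.51, 0.66, −0.96, and −0.56. For Crygd they were Mtus1, which encodes a microtubule-associated protein (r = 0.95), Slc7a7, an amino acid transporter subunit (0.95), and Pck2, the mitochondrial phosphoenolpyruvate carboxykinase (0.94). At 24 hr Mtus1 was at −1.51, Slc7a7 at −0.72, and Pck2 at −1.57 from 0 hr. Spearman's rank correlation over the same arrays was 0.96 to 0.98 for the genes beside Crygs and 0.52 to 0.90 for those beside Crygd. As these genes were picked for their likeness, their values are a description.

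**Figure D4:**
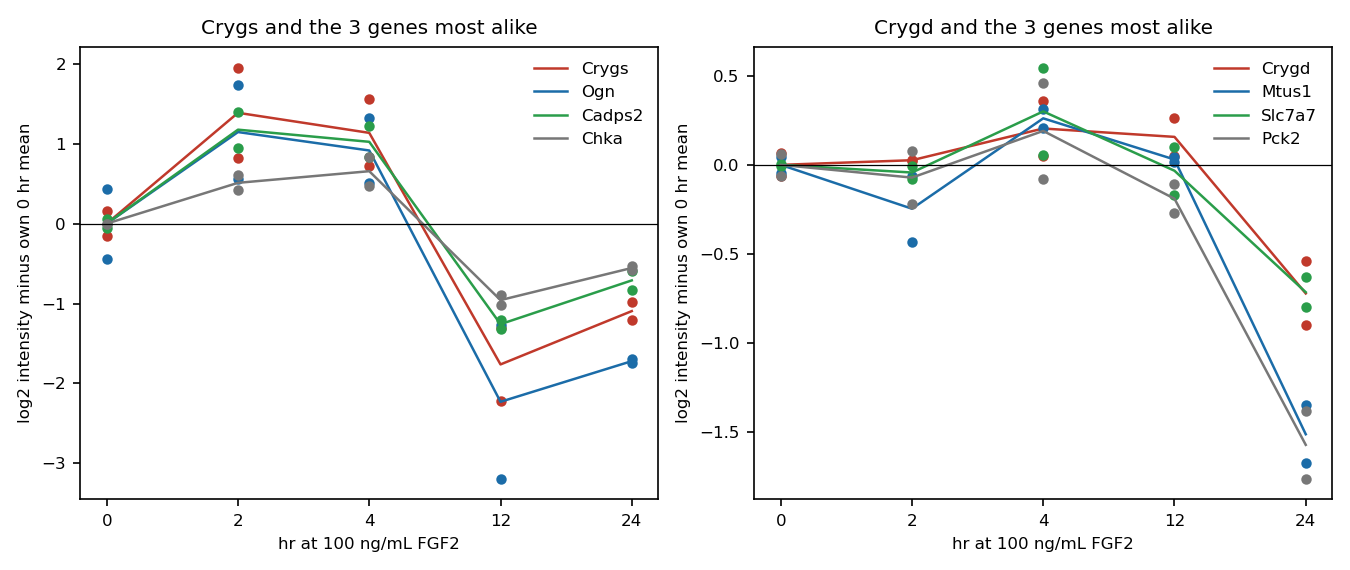
Log2 intensity minus the gene's own 0 hr mean (vertical axis) at each hour, for Crygs and Crygd and the 3 genes with the highest Pearson r to each, with arrays as points and lines through the means of the 2 arrays. The 4 genes of the Crygs panel lie above 0 at 2 and 4 hr and below 0 at 12 and 24 hr, and those of the Crygd panel drop at 24 hr.

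The other crystallins give the setting for these values. Alpha crystallins are chaperones of the small heat shock family and beta crystallins are the oligomeric relatives of the gamma crystallins. All 8 listed genes were measured and 0 were called against 0 hr at any of the 4 times by limma. The standard error ran from 0.08 for Cryab to 0.67 for Cryba2, and Cryaa and Cryab had mean levels at percentile 100 of all probe sets. The lack of a call therefore does not show a lack of change. Over all probe sets 17.5, 23.8, 19, and 20.2% were called at 2, 4, 12, and 24 hr. The median log2 difference of the 8 genes was −0.36, 0.04, −0.05, and 0.06 at 2, 4, 12, and 24 hr. Late against early, Crybb1 rose by 1.07 (limma adjusted p 0.0132) and Crybb3 by 0.32 (0.00884), while Cryab fell by 0.17 (0.0476). Crybb1 read 690.0 to 1523 on the 4 early arrays and 1303 to 3185 on the 4 late arrays. In that comparison 39.2% of all probe sets were called. The 2 beta crystallins called rose and the 2 gamma crystallins called fell. Of the beta crystallins not called, Crybb2 lay higher late (0.34), and Cryba1, Cryba2, and Cryba4 lay lower (−0.125, −1.01, and −0.70).

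Of 15 genes of fiber structure and maturation, 12 were measured. Those called numbered 2 up and 1 down at 2 hr, 3 up and 4 down at 4 hr, 1 up and 4 down at 12 hr, and 3 up and 0 down at 24 hr. Of all probe sets 17.5, 23.8, 19, and 20.2% were called at those times, in either direction. Mip, the beaded filament genes Bfsp1 and Bfsp2, and the gap junction gene Gja3 made up the falls at 4 and 12 hr. Mip lay at −1.44 and −1.92 then (limma adjusted p 0.0359 and 0.0124) and rose by 2.01 from 12 to 24 hr (0.0326). Caprin2, an RNA-binding protein of the lens, rose at 4, 12, and 24 hr (0.62, 1.00, and 1.09). Grifin, a lens galectin relative, rose at 24 hr by 0.67 (limma adjusted p 0.0108). At 24 hr, when Crygd fell, none of the measured fiber genes was called lower. The 5 epithelium markers summed to 33620 and 33010 at 0 hr and 20910 and 20710 at 24 hr, with 4 called lower then, Foxe3, Cdh1, Gja1, and Aqp1.

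Among 17 factors known to act on crystallin promoters 16 were measured, and 2 rose and 3 fell at 2 hr, 2 and 3 at 4 hr, 3 and 3 at 12 hr, and 4 and 4 at 24 hr. The shares of all probe sets called at those times, in either direction, were 17.5, 23.8, 19, and 20.2%. Maf, the leading Maf activator of crystallin genes in fibers, rose at 24 hr by 0.46 (limma adjusted p 0.0441) and late against early by 0.63 (0.00101). The small partner Mafg rose at 24 hr by 0.54 (limma adjusted p 0.00575). Mafk, another small partner, went the other way. It rose at 2 and 4 hr by 0.94 and 0.69 (limma adjusted p 0.00158 and 0.00419) and lay 0.825 lower late than early (0.000132). Mafa read 13.24 to 16.43 and was not called. Sox2 fell at 2 hr by 0.51 (limma adjusted p 0.0221) and at 24 hr by 0.58 (0.0101). It read 3811 and 3665 at 0 hr, 3459 and 4113 at 12 hr, and 2718 and 2294 at 24 hr, and its fall from 12 to 24 hr was 0.60 (limma adjusted p 0.0303). Sox1, a Sox factor needed for gamma crystallin expression, read 25.63 to 34.38 on the 10 arrays and was not called at any time. Pax6, which can repress crystallin genes in fibers and is needed for lens identity, fell at 4, 12, and 24 hr by 0.48, 0.34, and 0.41. Prox1, an activator of crystallin genes, rose late against early by 0.42 (limma adjusted p 0.00113). Hsf4, the lens heat shock factor that acts on gamma crystallin genes, rose at all 4 times by 0.29 to 0.48, from readings of 31.10 and 31.46 at 0 hr. The probe sets of Hsf4 and Sox1 were dim, with mean levels at percentiles 30.7 and 25.3 of all probe sets. Gata3 rose at 12 and 24 hr by 1.29 and 1.35. Crebbp, a histone acetyltransferase, fell at those times by 0.53 and 0.60. Pitx3 fell at 2 and 4 hr (−1.05 and −1.06), and the retinoic acid receptor gene Rarb fell at 2, 4, and 12 hr (−0.59, −1.49, and −0.50). Whether any of these moved the gamma crystallins was not tested.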

How the data were processed

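Total RNA of the explants was amplified and hybridized to Affymetrix rat arrays by the authors. They applied RMA to the 10 arrays, and its version is not given in the sources used here. The deposited values are linear intensities whose medians per array run from 98.0 to 100.3. The values were log2-transformed and not normalized again. The array type named in the paper is not that of the probe sets. Without 57 array controls, 31042 probe sets remained. Gene names came from the annotation of the array: 20826 probe sets had 1 symbol, 436 several, and 9780 none.

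In R 4.3.3 with limma 3.58.1, each probe set was fitted with 1 mean per time point over all 10 arrays (5 residual degrees of freedom, prior degrees of freedom 3.69), and calls were made where p, adjusted after Benjamini and Hochberg over all probe sets, was under 0.05. The fit was tested on simulated data. With 2 arrays per time point, their number limits the precision. The members and gene lists were chosen with earlier results of these data known. Named genes are all member probe sets, members of 8 lists written from general knowledge, and the 3 genes with the highest Pearson r to each member that passed the moderated F test. List genes are represented by their brightest probe set with the symbol alone. The motif letters TATATA and the shared run were chosen after the promoters were read. Promoters were aligned with Biopython 1.88, and matplotlib 3.10.9 under Python 3.11.15 drew the figures. The alternatives were leaving out 1 array at a time, blocking on the replicate number, median centring, quantile normalization, array weights, a robust prior with a mean trend, the dimmest probe sets left out, unadjusted p, the methods' analysis of variance and a limma fit (both restricted to the groups compared), a fold change of at least 1.25, only probe sets with 1 gamma crystallin symbol, and, for the lists, the mean of a gene's probe sets. A time point left with 1 array is assumed to vary like the others.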

Additional observations from a re-analysis of the deposited data

How the results depend on the processing

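No value changed direction together with a call. At 2 hr 1 member, against 0, was called with unadjusted p, the contrast's groups alone, a trended and robust prior, or the dimmest probe sets left out, settings that called 30.6, 13.3, 18.3, and 26.3% of the probe sets tested. These calls were of Crygs, but of Cryga with the groups alone. With unadjusted p, the count was 1 at 4 hr (35.2% of all probe sets) and 2 at 24 hr (31.8%), and at 24 hr it was 3 by the methods' analysis of variance (26.4%), 4 with the groups alone (24.6%), and 2 with array weights (28.6%), against 1 (20.2%). The added calls were of Crygs in each case, joined by Cryga and Crygb in the analysis of variance, which lost Crygd, and with the groups alone. Between 12 and 24 hr the analysis of variance called 0 (14.7% of all probe sets), against 1. At 12 hr it called 1 member (29.1% of all probe sets), as many as reported (19%), but another one. Crygs was lost (unadjusted P 0.0675). The dim probe set 1396127_at of Cryga, lower by 0.16 and with 0 hr replicates 0.008 apart, was gained (unadjusted P 0.0486). Calls of Crygs and Crygd that were lost when 1 array was left out are given with those genes. Over all alternatives the difference from 0 hr ran from −2.22 to −1.30 for Crygs at 12 hr. For Crygd at 24 hr it ran from −0.90 to −0.54. Late against early, Cryga 1374384_at lay at −1.29 and Crygb at −0.84 without 12 hr replicate 1, against −0.54 and −0.24 with all arrays. With the mean of all probe sets of a gene, 1 of 5 epithelium markers in place of 2 and 0 of 3 endothelium markers in place of 1 were called at 12 hr. In the main fit 19% of all probe sets were called then. Over all probe sets the calls ranged from 1928 to 9496 at 2 hr (5427 as reported), 3973 to 10934 at 4 hr (7385), 2879 to 9845 at 12 hr (5886), 3029 to 9876 at 24 hr (6264), 12 to 5301 for 4 against 2 hr (1159), 180 to 5531 for 24 against 12 hr (1348), and 9127 to 14688 late against early (12164). The cause of these shifts was not tested. With a replicate block the members called were 0, 0, 1, and 1 at 2, 4, 12, and 24 hr, the same counts as without it, and the block changed no call of a gamma crystallin. With the block 16.1, 22.7, 18, and 19.1% of all probe sets were called at those times. Equal replicate numbers were not treated as pairs, since replicate differences of 2 time points correlated at −0.15 to 0.33, above 0.1 only for 2 and 4 hr.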

Other observations

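Crygn, a relative of the gamma crystallins that lies outside both the cluster and the rule used here, was looked at after its values were seen. Its probe set (1384241_at) read 1351 and 1496 at 0 hr, 886.2 and 1731 at 2 hr, 1294 and 1875 at 4 hr, 1881 and 1524 at 12 hr, and 4174 and 4306 at 24 hr. Both 24 hr arrays lay above all 8 others. It rose at 24 hr by 1.58 on the log2 scale (2.98-fold, standard error 0.29, limma adjusted p 0.00555) and from 12 to 24 hr by 1.32 (2.50-fold, limma adjusted p 0.0389), the times at which Crygd fell.

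The 10 probe sets in which 12 hr replicate 1 exceeded replicate 2 most, in log2 units, included Cryga (3.01, the second of all) and Crygb (2.37, the fourth). The others were the class I histocompatibility gene RT1-CE5 (3.24 and 1.54 in 2 probe sets), the interferon-induced gene Mx2 (2.93), Ogn (1.92), which was also the gene most like Crygs, Cnppd1 (1.91), Hpd (1.82), Chst10 (1.68), and the fiber gene Mip (1.64).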
